A study of Mus musculus with 22 samples.

Results

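The 77 genes described here are named as mitochondrial ribosomal protein genes and carry a symbol that begins with Mrpl or Mrps followed by a number. They are 48 Mrpl and 29 Mrps genes of the 19721 genes listed in at least 1 of the 22 libraries. Membership was set by symbol alone and not by any measured value, though the set was chosen with earlier results of these data known. All 77 were listed in every library, with estimated read counts between 225 and 2886, and all passed the filter on low counts. Proteins of the same particle that carry other symbols (Dap3, Ptcd3 and others) are given as a separate list, and the gene Mrpl58 was not analysed here under that symbol.

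The study followed mouse J1 embryonic stem (ES) cells as they formed embryoid bodies (EBs), aggregates in which the cells differentiate into many types, in the presence of tetrabromobisphenol A (TBBPA), a brominated flame retardant, or of its vehicle. Every library came from the J1 line, with no genetic change named in the labels. There were 2 libraries of untreated ES cells. On each of days 4, 9, 12, 18 and 28 of EB culture there were 2 libraries with 0.1% DMSO, 1 with 10 nM TBBPA and 1 with 100 nM TBBPA. Whether the libraries within a group are independent cultures is not stated, and the p-values here rest on spread within groups, which may be technical. Where both doses of TBBPA were treated as 1 group, this spread also holds any difference between doses. An EB is a mixture of cells, so fewer cells of a type and less RNA per cell cannot be told apart.

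The mitochondrial ribosome translates the few mRNAs of mitochondrial DNA, all of which encode core subunits of the respiratory chain and ATP synthase. Its RNA is made in the mitochondrion, but every one of its proteins is encoded in the nucleus, made by the cytosolic ribosome and imported. The small subunit binds and decodes the mRNA, and the large subunit joins amino acids and delivers the nascent protein through an exit tunnel to the inner membrane. Many of the proteins descend from bacterial ribosomal proteins, while others joined the particle in the mitochondrial lineage.

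The libraries held 18158583 to 18998141 estimated reads each, so depth differed little between groups. Levels are given as CPM, the count of a gene scaled to a library size that was adjusted by TMM, which takes most genes as unchanged, and as FPKM where genes are compared with each other. The 2 ES libraries differed from each other more than any DMSO pair: the chi-square statistic per member gene was 10.6 for the ES pair and 1.25 to 3.3 for the 5 DMSO pairs. The 10 ES cell markers, which include Pou5f1 and Nanog, were all detected in the ES libraries and summed to 6399 to 6778 CPM there, against 656 to 660 CPM in the day 28 DMSO libraries. The 8 fibroblast markers rose from 12.6 to 18.6 CPM in ES cells to 14484 to 15066 CPM at day 28, and 8 markers of dividing cells fell from 4264 to 4412 CPM to 853 to 861 CPM.

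The mitochondrial ribosomal protein mRNAs were of middle to high abundance. Their median FPKM, each gene averaged over the 22 libraries, was 36.7, against 4.58 for all listed genes, 90.4 for 36 nuclear genes of the respiratory chain and 1244 for the cytosolic ribosomal proteins. The large subunit symbols had a median of 39 and the small subunit symbols 36.3. The highest mean FPKM belonged to Mrpl42 (99.7), Mrpl52 (97), Mrpl12 (87.6), Mrps21 (86.2) and Mrpl30 (85.1). The lowest belonged to Mrpl19 (8.37), Mrpl17 (9.7), Mrps25 (9.73), Mrpl41 (10.9) and Mrpl35 (11). The mRNA levels of genes whose proteins enter a common particle were thus unequal, and 65 of the 77 had a mean of at least 20 FPKM.

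The summed level of the 77 mRNAs fell through the whole course in control libraries. It was 4718 and 4448 CPM in the ES libraries, 4348 and 4138 at day 4, 3464 and 3436 at day 9, 2941 and 2893 at day 12, 2600 and 2593 at day 18, and 2463 and 2488 at day 28. At every step both libraries of the later stage lay below both libraries of the earlier one. Both symbol groups took part: the Mrpl sum went from 3035 and 2871 CPM in ES cells to 1603 and 1622 at day 28, and the Mrps sum from 1683 and 1577 to 860 and 866. Without TMM adjustment the members took 4171 and 3906 CPM in the ES libraries and 2714 and 2707 CPM at day 28.

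**Figure D1:**
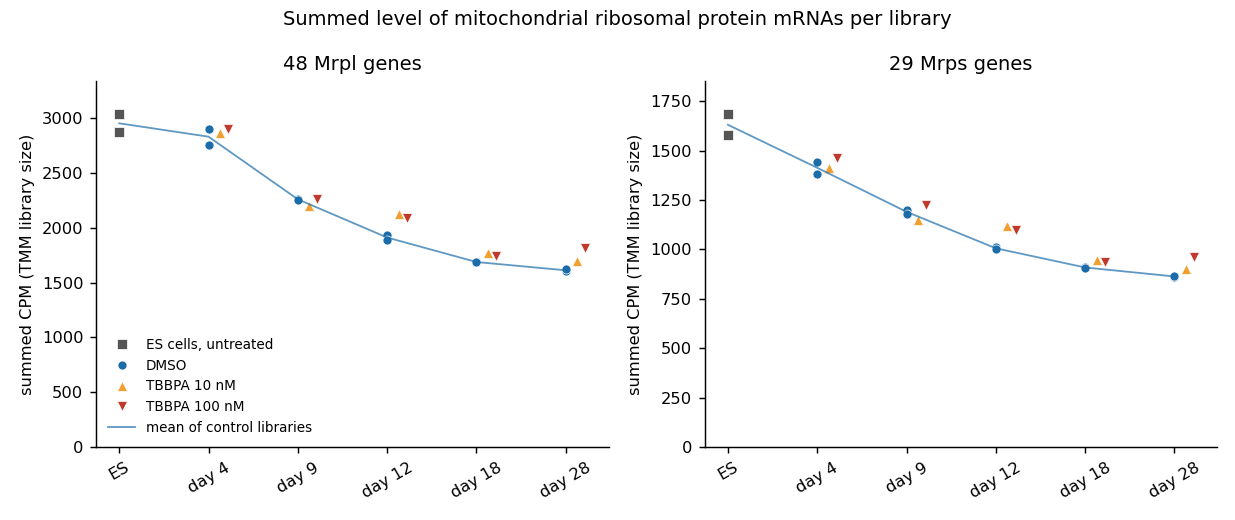
Summed CPM of the 48 Mrpl genes (left) and the 29 Mrps genes (right) in each of the 22 libraries, by stage on the x axis. Points are single libraries, the line joins the means of the control libraries (ES and DMSO), and both sums decline from ES cells to day 28.

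Between ES cells and day 28, 69 of the 77 genes fell and 4 rose by edgeR's quasi-likelihood test at an adjusted p under 0.05. Of the 16203 genes tested, 83.1% passed in this comparison, 38.2% of them lower and 45.0% higher, so a call as such was common while the direction of the members was not that of all genes. The members' median log2 change was -0.82, beside 0.13 for all genes tested, and at day 28 a member stood at a median of 56.1% of its ES level. In 70 of the members both day 28 libraries lay below both ES libraries, in 3 both lay above, and in 4 the groups overlapped. Overlap was not counted over all genes. Scaling by library size alone moved the median of all genes to 0.43 and that of the members to -0.52. Relative to all genes the members' median was -0.95 under either scaling, a distance that cannot differ because scaling shifts all genes alike.

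**Figure D2:**
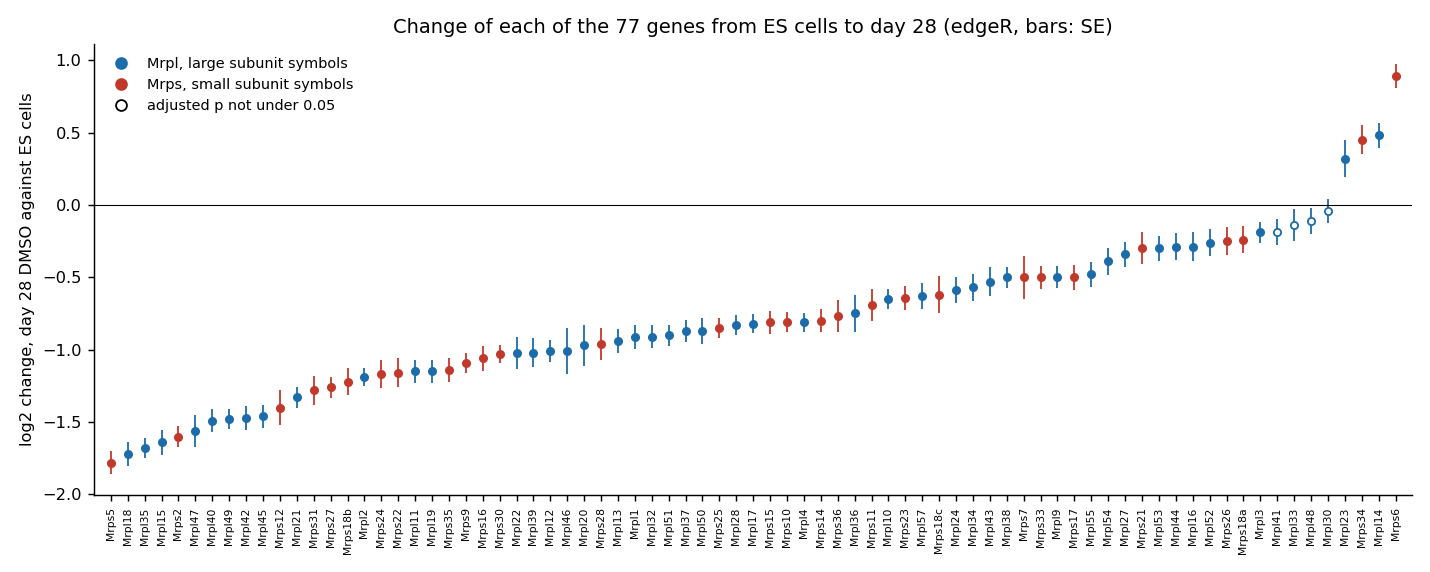
The log2 change from ES cells to day 28 DMSO EBs for each of the 77 genes in order of size, with its standard error as a bar. Filled points passed an adjusted p under 0.05, open points did not, and colours separate Mrpl from Mrps symbols; 4 genes lie above 0 among those that passed.

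The steepest falls were in proteins of different places in the particle. Mrps5, a small subunit protein beside the mRNA channel, had 169 and 142 CPM in ES cells, 105 and 107 at day 4, 79.1 and 79 at day 9, 63.4 and 67.4 at day 12, 55.3 and 52.9 at day 18, and 45.9 and 43.7 at day 28. It declined at every step with no overlap between successive stages, a log2 change of -1.78 over the course (SE 0.08, edgeR adjusted p = 3.33e-11). Mrpl18, a protein of the central protuberance (the crown of the large subunit that faces the small one), had 99.8 and 85.9 CPM in ES cells, 76.6 and 74.5 at day 4, 64.3 and 59.1 at day 9, 48.1 and 46.6 at day 12, 38.9 and 38.5 at day 18, and 27.9 and 27.8 at day 28. Its libraries also did not overlap between stages, and its log2 change was -1.72 (SE 0.08, edgeR adjusted p = 5.57e-11). Mrpl15, a conserved large subunit protein, held 165 and 139 CPM in ES cells and 174 and 151 at day 4, and only then went down, to 96.2 and 95.6 at day 9 and 48.7 and 48 at day 28. Its ES and day 4 libraries overlapped, whereas all later libraries were lower (log2 change ES to day 28 -1.64, SE 0.09, edgeR adjusted p = 2.11e-10). Mrpl35 and Mrps2 completed the 5 largest falls, at -1.68 and -1.60.

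The 4 genes that rose were Mrps6, Mrpl14, Mrps34 and Mrpl23. Mrps6, a small subunit protein with a bacterial counterpart, stood at 22.9 and 23.5 CPM in ES cells, 27.1 and 25.5 at day 4, 26.6 and 29.8 at day 18, and 42.6 and 42.4 at day 28. Both day 28 libraries were above every earlier control library (log2 change from ES cells 0.89, SE 0.08, edgeR adjusted p = 9.45e-08). The annotated span of Mrps6, introns included, overlaps that of Slc5a3, a myo-inositol transporter gene, by 29152 bases on the same strand. The count of Slc5a3 rose by 2.10 on the log2 scale (edgeR adjusted p = 1.04e-06). The mean transcript length of Mrps6 was 795 bases, and the part of shared reads in its rise was not tested. Mrpl14, a conserved protein at the interface of the subunits, had 23 and 24.9 CPM in ES cells, 21 and 21.2 at day 4, 29.5 and 27.2 at day 9 and 31.5 and 34.4 at day 28. It was the only member to rise from day 4 to day 9 (log2 change 0.43, edgeR adjusted p = 0.000636), and it overlaps 584 bases of Tmem63b on the opposite strand, a gene that changed by -0.23 in that step.

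Mrps34 and Mrpl23 also ended above their ES level, after a peak at day 4. Mrpl23, a protein at the exit tunnel, had 22.6 and 32.2 CPM in ES cells, 61.8 and 57.3 at day 4, 45.8 and 49 at day 9, and 31.9 and 35.8 at day 28. Day 28 overlapped the ES libraries, and its change over the whole course was 0.32 (SE 0.13, edgeR adjusted p = 0.0312). Mrps34, a protein found only in the mitochondrial lineage that contacts the small subunit RNA, had 21.6 and 18.7 CPM in ES cells, 44.1 and 39.7 at day 4, 22.4 and 20.2 at day 9, and 26.5 and 28.1 at day 28. Its day 4 libraries stood above all others, and its change over the whole course was 0.45 (SE 0.10, edgeR adjusted p = 0.00082). The annotated span of Mrps34, introns included, overlaps that of Nme3, a nucleoside diphosphate kinase gene, by 1003 bases on the same strand. The count of Nme3 changed by 1.06 from ES cells to day 4 and by -0.92 from day 4 to day 9, beside 1.05 and -0.98 for Mrps34. No source used here gives the strand setting of the counting, and the part of the overlap in these values was not tested.

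**Figure D3:**
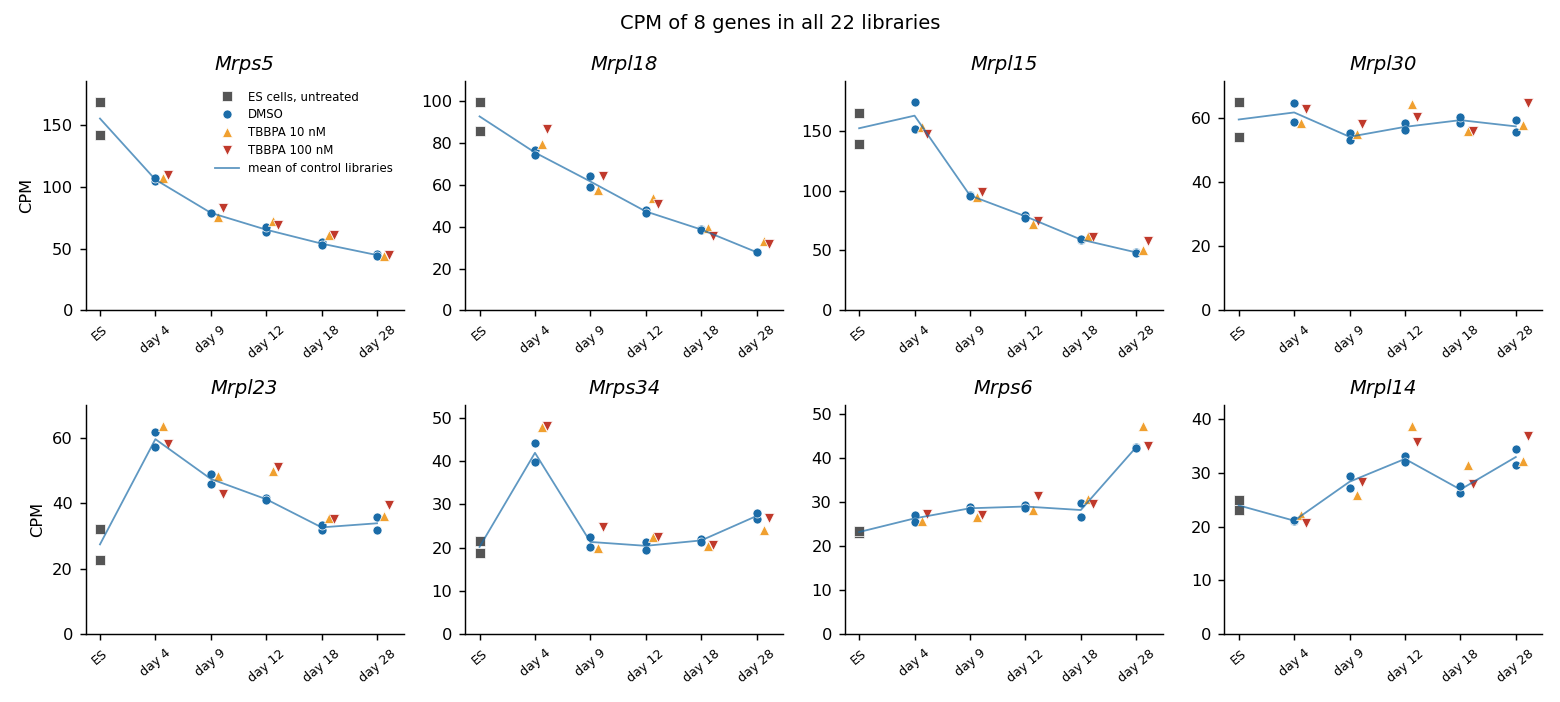
CPM of 8 genes in all 22 libraries by stage, each panel with its own y axis from 0. Points are single libraries and the line joins control means: Mrps5, Mrpl18 and Mrpl15 decline, Mrpl30 stays level, Mrpl23 and Mrps34 peak at day 4, and Mrps6 and Mrpl14 end above their ES level.

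The other 4 genes did not pass the test over the course: Mrpl41 (log2 change -0.19), Mrpl33 (-0.14), Mrpl48 (-0.11) and Mrpl30 (-0.04). Mrpl30, a conserved large subunit protein, had 54.1 and 65.1 CPM in ES cells and 55.6 and 59.3 at day 28, and lay between 53.1 and 65.1 in all 12 control libraries. It had the smallest range of group means of all members, followed by Mrpl48, Mrpl41, Mrps18a and Mrpl53. Mrps18a illustrates how copies of 1 ancestral gene differed. The 3 Mrps18 paralogs descend from a single bacterial protein, yet Mrps18b fell by 1.22 on the log2 scale, Mrps18c by 0.62 and Mrps18a by 0.24. Mrps18b had 78.5 and 64.1 CPM in ES cells and 30.2 in both day 28 libraries, whereas Mrps18a had 48.9 and 40.4 and then 37.7 and 37.2. In both genes all day 28 libraries lay below all ES libraries, and the difference between paralogs was not tested.

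Grouped by place in the particle (groups drawn up with the values known), falls from ES cells to day 28 were common everywhere. They were also common in the whole set of members, where 38.2% of all genes tested were lower. No difference between the groups below was tested. In the L7/L12 stalk and its base, which recruits translation factors, Mrpl10, Mrpl11 and Mrpl12 all fell, with a median log2 change of -1.01. Along the mRNA path of the small subunit 5 of 5 fell (Mrps5, Mrps7, Mrps11, Mrps12 and Mrps24), with a median of -1.17, and in the head of the small subunit 7 of 7 (-0.81). At the exit tunnel 7 of 8 fell and Mrpl23 rose, with a median of -0.92, and in the central protuberance 5 of 6 fell, with a median of -0.76. By symbol, 42 of 48 Mrpl genes fell and 2 rose (-0.83), beside 27 of 29 Mrps genes that fell and 2 that rose (-0.81). Members with a bacterial counterpart had 39 of 44 lower (-0.82) and those without 30 of 33 (-0.85).

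Among the genes often named for other roles, Mrpl12, which also binds the mitochondrial RNA polymerase, had 113 and 101 CPM in ES cells, 131 and 122 at day 4 and 53.9 and 51.2 at day 28. It was therefore highest at day 4, with every later control library below every ES library (log2 change ES to day 28 -1.01, edgeR adjusted p = 1.11e-08). Mrpl11, its neighbour in the stalk base, had 73.4 and 61.8 CPM in ES cells, 81.7 and 80.3 at day 4 and 29.7 and 30.4 at day 28 (log2 change -1.15). Mrps27 fell from 68.5 and 63.4 to 27.8 and 26.8 CPM (-1.26), and Mrps30, which despite its symbol sits in the large subunit, fell from 89.4 and 85.3 to 41.7 and 42.9 CPM (-1.03). Mrps36, now placed in the ketoglutarate dehydrogenase complex and not in the ribosome, fell by 0.77 on the log2 scale. Mrps7 fell by 0.50, with ES libraries at 72.8 and 47.7 CPM.

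The promoters of the members were taken from RefSeq (GRCm38.p6), where 68 of the 77 genes matched a window of 250 bases before and 50 bases after a start. Of these, 26 (38.2%) had the start of another gene on the opposite strand within 1000 bases, against 17.1% of tested genes with a window. Of the 21 tested neighbours that are not members, 15 fell and 5 rose from ES cells to day 28, with a median log2 change of -0.65; the members with a neighbour had -0.88 and the 42 others -0.81. The stretches below run up to the base before the start of the first gene named, on its strand. The first 3 lie between pairs of mitochondrial genes and the fourth beside the most level member, with capitals for a match to an NF-Y, ETS or NRF1 motif.
Mrps11, Mrpl46: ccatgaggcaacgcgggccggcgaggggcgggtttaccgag
Mrps12, Sars2: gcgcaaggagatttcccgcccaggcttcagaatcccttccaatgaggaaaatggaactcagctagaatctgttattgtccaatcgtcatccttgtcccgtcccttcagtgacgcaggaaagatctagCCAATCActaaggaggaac
Mrps27, Ptcd2: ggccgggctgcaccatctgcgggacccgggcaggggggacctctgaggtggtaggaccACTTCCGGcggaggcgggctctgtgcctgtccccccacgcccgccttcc
Mrpl30, Mitd1: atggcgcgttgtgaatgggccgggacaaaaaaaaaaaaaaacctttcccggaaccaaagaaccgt
The Mrps11 and Mrpl46 starts face away from each other across the 41 bases of chr7:78783090-78783130 (plus strand for Mrps11), and both genes fell, by 0.69 and 1.01 on the log2 scale. The 146 bases of chr7:28741822-28741967 (minus strand) lie between Mrps12, the decoding-site protein (log2 change -1.40), and Sars2, the mitochondrial seryl-tRNA synthetase (-1.68). The 107 bases of chr13:99344679-99344785 (plus strand) lie between Mrps27 (-1.26) and Ptcd2, a mitochondrial RNA-processing gene (-1.13). Beside them, the 65 bases of chr1:37890412-37890476 (plus strand) separate Mrpl30 (-0.04) from Mitd1 (-0.58), a pair of unequal changes. Mrps11 and Mrpl46 also overlap by 413 bases on opposite strands in the GENCODE annotation, one of 22 members that overlap another gene of the tables, 3 of them on the same strand (Mrps6, Mrps34 and Mrps24). The values of Mrpl18 and Mrpl47 stand beside overlaps of 645 bases with Tcp1 and 1577 with Actl6a on the opposite strand, and the part of such overlaps was not tested.

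Exact letters of 7 motifs were searched on both strands of the 74 member windows. The ETS motif bound by GABPA (CCGGAAGT) was in 16.2% of member windows, 6.53% of windows of tested genes and 3.89% of all windows. For YY1 (AAGATGGCG) the shares were 10.8%, 2.39% and 1.4%, for NRF1 (a palindrome of 10 letters, those in capitals in the Mrpl9 stretch) 4.05%, 1.72% and 0.971%, for NF-Y (CCAATCA) 14.9%, 9.75% and 7.82%, and for the E-box bound by MYC (CACGTG) 9.46%, 9.25% and 7.15%. SP1 (GGGCGG) was in 52.7%, 57.9% and 35.7% and the TATA box (TATAAA) in 6.76%, 8.1% and 13.6%, both less often in member windows than in those of tested genes, with no test of any of these differences. The windows of cytosolic ribosomal proteins held the ETS motif in 14.9% and YY1 in 8.11%. A match is a description of letters and not a site. The 12 members with an ETS match had a median log2 change from ES cells to day 28 of -0.44 and the 56 others -0.84. The medians with and without a match were -1.09 and -0.75 for NF-Y (9 and 59 members), -1.02 and -0.81 for YY1 (8 and 60), -0.91 and -0.81 for NRF1 (3 and 65) and -0.87 and -0.81 for the E-box (5 and 63). They were -0.84 and -0.78 for SP1 (34 and 34) and -0.50 and -0.82 for the TATA box (5 and 63). The 150 bases before the start are printed for the member that fell most and the one that rose most, with Mrpl9 as an example of an NRF1 match, in capitals.
Mrps5: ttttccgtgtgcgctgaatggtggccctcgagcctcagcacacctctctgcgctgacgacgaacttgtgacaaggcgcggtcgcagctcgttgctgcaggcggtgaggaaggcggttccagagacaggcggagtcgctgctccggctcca
Mrps6: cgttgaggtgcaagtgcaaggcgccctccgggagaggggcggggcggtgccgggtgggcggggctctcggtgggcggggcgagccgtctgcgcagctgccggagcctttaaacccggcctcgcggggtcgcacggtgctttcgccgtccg
Mrpl9: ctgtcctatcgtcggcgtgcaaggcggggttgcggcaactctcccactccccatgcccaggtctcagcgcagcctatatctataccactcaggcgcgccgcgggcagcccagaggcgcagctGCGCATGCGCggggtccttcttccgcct
They are chr2:127587276-127587425, chr16:92058186-92058335 and chr3:94443186-94443335, all on the plus strand. Mrps5 and Mrps6 hold no match to the ETS, YY1, NRF1, NF-Y or E-box letters in these stretches, where SP1 and TATA are not marked, and the NRF1 match of Mrpl9 begins at base -28 from the start. Mrpl9, a large subunit protein, fell by 0.50 on the log2 scale.

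At the first step, from ES cells to day 4, 25 genes fell and 9 rose (edgeR), where 62.3% of all genes tested passed, 31.9% higher and 30.3% lower. The median log2 change was -0.15, beside 0.00 for all genes. The largest falls were Mrps12, from 47.3 and 43.4 to 25.4 and 29.8 CPM (log2 change -0.72), Mrpl35 (-0.69), Mrps14 (-0.66), Mrpl4 (-0.58) and Mrps2 (-0.57). The largest rises were Mrpl23 (1.12), Mrps34 (1.05), Mrpl16 (0.65), Mrpl33 (0.51) and Mrpl3 (0.32). Mrpl16, a protein near the catalytic centre of the large subunit, went from 21.5 and 21.8 to 35.2 and 32.5 CPM with no overlap, then back to 24.8 and 21.5 at day 9. Its downstream neighbour Stx3, on the opposite strand 157 bases away, changed by 2.07 and then by -1.10. Of the 80 cytosolic ribosomal protein genes tested, 31 rose and 4 fell at this step (median 0.15), whereas of 36 respiratory chain genes 25 fell and 1 rose (median -0.26).

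From day 4 to day 9, 39 members fell and 1 rose (edgeR), where 60.8% of all genes passed and 28.9% fell. The median log2 change was -0.25 (all genes 0.01), and with library size alone it was -0.11 (all genes 0.15). The distance to all genes, -0.26, is the same under either by construction. Mrps34 (-0.98), Mrpl15 (-0.76), Mrpl42 (-0.63), Mrpl33 (-0.63) and Mrpl51 (-0.63) fell most. Mrpl42, the member of highest FPKM, had 112 and 98.2 CPM at day 4 and 71.5 and 64.1 at day 9, without overlap. In the same step 77 of the 80 cytosolic ribosomal protein genes fell, with a median of -0.56. The steps ES to day 4 and day 4 to day 9 share the day 4 libraries, as every later pair of steps shares its middle day.

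Falls continued from day 9 to day 12, with 34 members lower and none higher (33.1% of all genes passed, 15.6% lower). The median was -0.22 and both day 12 libraries were below both day 9 libraries for 68 of the 77 genes, a count not taken over all genes. Mrpl20, a large subunit protein, went from 36.6 and 32.9 to 21.8 and 21.4 CPM (log2 change -0.67, edgeR adjusted p = 0.00219). Mrpl46 (-0.57), Mrps18b (-0.52), Mrpl12 (-0.51) and Mrps22 (-0.49) followed, and of these Mrpl46 did not pass without any 1 of the 4 libraries (edgeR adjusted p 0.0634 to 0.0907). The count depended on which libraries entered the fit: omitting a single library of either day left 16 to 19 (16 without either DMSO replicate 1, 17 without day 12 replicate 2 and 19 without day 9 replicate 2), and the count was 58 when both ES libraries, which differ from each other most, were left out.

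From day 12 to day 18, 21 members fell and none rose (37.7% of all genes passed, 17.1% lower), with a median of -0.16. The largest were Mrpl15 (-0.40), Mrps28 (-0.37), Mrpl23 (-0.33), Mrpl34 (-0.32) and Mrps27 (-0.30). Leaving out 1 library gave 5 (without day 12 replicate 1), 10 (without day 12 replicate 2), 8 (without day 18 replicate 1) or 7 calls (without day 18 replicate 2), and leaving out both ES libraries gave 42. Mrpl23 did not pass without any 1 of these 4, Mrps28 without either day 18 library or day 12 replicate 1, and Mrpl34 without replicate 1 of either day. From day 18 to day 28, 21 fell and 5 rose (53.0% of all genes passed, 24.9% higher and 28.1% lower), with a median of -0.08 beside -0.03 for all genes. Mrpl18 (-0.48), Mrpl11 (-0.44), Mrps31 (-0.41), Mrps22 (-0.39) and Mrpl19 (-0.35) fell, and Mrps6 (0.59), Mrps34 (0.33), Mrpl52 (0.30), Mrpl14 (0.29) and Mrpl38 (0.24) rose. The counts here were 13 without day 18 replicate 1, 17 without day 28 replicate 1 and 12 without day 28 replicate 2. Each of the 4 rises other than that of Mrps6 did not pass without day 28 replicate 2, nor did those of Mrpl52, Mrpl14 and Mrpl38 and the falls of Mrps31 and Mrps22 without day 18 replicate 1. Mrps34 also missed the threshold without day 18 replicate 2, and Mrpl52 without day 28 replicate 1.

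Across the 6 control stages, 76 of the 77 genes differed somewhere in the course, where 95.0% of all genes did. The stage of the highest mean was ES cells for 46 members, day 4 for 25, day 9 for 4 and day 28 for 2, and the lowest mean was at day 28 for 48 and at day 18 for 22. The mean fell at each of the 5 steps for 22 members, and 28 ended below 50% of their ES level. These counts of stage, step and final level were not taken over all genes.

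Genes that build and feed the mitochondrial ribosome were lower at day 28 too, where 38.2% of all genes tested were lower than in ES cells. Of 24 assembly factors tested 22 fell (median log2 change -0.69), led by Noa1 (-1.44) and Fastkd2 (-1.35), a GTPase and an RNA-binding protein that help assemble the particle. Of 15 translation factors 10 fell and 1 rose (-0.82), led by Lrpprc (-1.88), which stabilises mitochondrial mRNAs, and the elongation factor gene Gfm1 (-1.43). Of 20 genes for charging mitochondrial tRNAs 17 fell and 2 rose (-0.60), and of 10 genes for mitochondrial DNA upkeep and transcription 8 fell and 1 rose (-0.73). Ribosomal proteins with other symbols had 6 of 7 lower and 1 higher (-0.77), with Ptcd3 (-1.81) and Gadd45gip1 (-1.56) changed most. Lactb, which rose, has once been listed as a ribosomal protein and is a mitochondrial protease-like protein. The cytosolic ribosomal proteins had 78 of 80 lower (-0.83) and the respiratory chain 33 of 36 lower and 1 higher (-0.79). Their medians were thus close to the members' median of -0.82, and the difference between lists was not tested. Of 10 regulators of mitochondrial biogenesis 5 fell and 3 rose. Those that fell were Gabpa (-1.75), Pprc1 (-1.63), Mycn (-1.33), Nrf1 (-1.09) and Gabpb1 (-0.53), and those that rose were the coactivator gene Ppargc1a (5.16), Myc (3.46) and Esrra (0.53). The summed level of the list was 968 and 781 CPM in ES cells and 410 and 431 at day 28.

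**Figure D4:**
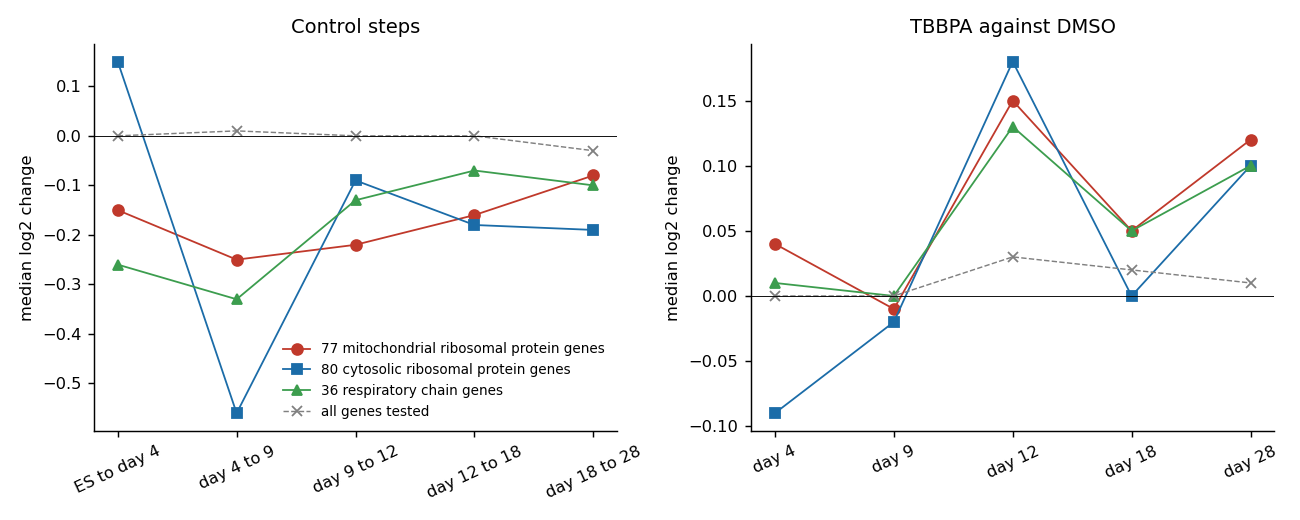
Median log2 change of the 77 members, of 80 cytosolic ribosomal protein genes, of 36 respiratory chain genes and of all genes tested, for each control step (left) and for TBBPA against DMSO at each day (right). Lines only join the points of a list; the members' medians are below 0 at every control step and reach 0.15 at day 12 of TBBPA.

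TBBPA was compared with DMSO at each day, with the 10 nM and the 100 nM library together against the 2 DMSO libraries, so that each dose had 1 library a day. At days 4 and 9 no member passed (edgeR; 4 and 1 had an unadjusted p under 0.05; DESeq2 and limma also called none), where 0.458% (0.0855% higher, 0.372% lower) and 2.34% (1.37% higher, 0.964% lower) of all genes did. The median log2 change was 0.04 at day 4 and -0.01 at day 9. The summed level was 4282 CPM (10 nM) and 4362 (100 nM) at day 4 and 3347 and 3489 at day 9, and at both days the TBBPA and DMSO libraries overlapped. The smallest p belonged at day 4 to Mrpl2 (log2 change 0.18, edgeR adjusted p = 0.32) and at day 9 to Mrpl4 (-0.15, edgeR adjusted p = 0.322).

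At day 12, 12 members were higher with TBBPA and none lower. Of all genes tested 21.1% passed, 11.9% higher and 9.19% lower, so the members' share was near the background. Of the 77 members 72 had a positive log2 change, with a median of 0.15 beside 0.03 for all genes. Both TBBPA libraries were above both DMSO libraries for 59 members, below for 2 and overlapped for 16. These counts of sign and overlap were not taken over all genes. Members that vary together are not independent, so the counts are descriptions only. The summed level was 3248 CPM at 10 nM and 3192 at 100 nM, against 2941 and 2893 in DMSO. Against the mean of DMSO, 72 members were higher at 10 nM (median log2 ratio 0.16) and 69 at 100 nM (0.13).

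Mrps11, at the mRNA exit side of the small subunit, had 13.3 CPM in both DMSO libraries, 19.9 at 10 nM and 18 at 100 nM, the largest change at day 12 (log2 change 0.51, SE 0.12, edgeR adjusted p = 0.00396). Mrpl41, a large subunit protein also linked to cell death control, had 22.6 and 22.3 CPM in DMSO, 32.4 at 10 nM and 28.6 at 100 nM (0.44, SE 0.09, edgeR adjusted p = 0.00138). In both genes the TBBPA libraries stood above DMSO without overlap. Mrpl20 had 21.8 and 21.4 CPM in DMSO and 25.9 and 29.8 with 10 and 100 nM (0.36), Mrpl47 14.4 and 16.1 and then 19.1 and 20.1 (0.36), and Mrpl55 15.9 and 16.3 and then 21.3 and 20.2 (0.36). The stalk genes Mrpl12 and Mrpl11 changed by 0.26 each: Mrpl12 had 64.6 and 65.9 CPM in DMSO, 77.8 at 10 nM and 79 at 100 nM, and Mrpl11 had 47.5 and 46.7, then 56.3 and 56.4. Mrpl3, beside the catalytic centre, had 46.2 and 48 CPM in DMSO, 52.4 at 10 nM and 57.3 at 100 nM (0.22), and Mrps21 rose by 0.28. The other 3 that passed were Mrpl13 (0.34), Mrpl27 (0.25) and Mrps33 (0.23).

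**Figure D5:**
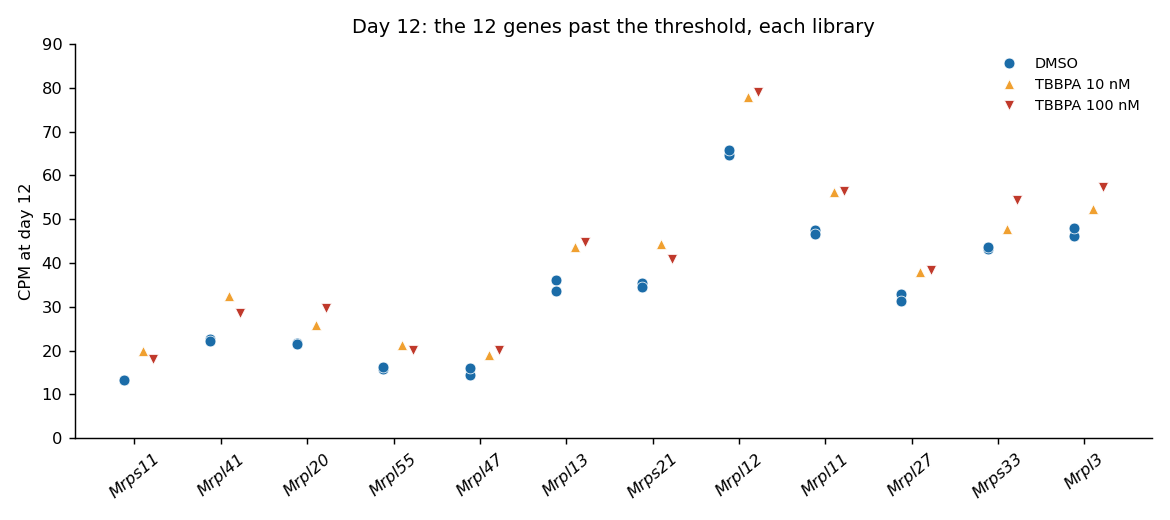
CPM at day 12 of the 12 genes that passed the test, each of the 4 libraries as a point, in order of log2 change. For every gene both TBBPA libraries lie above both DMSO libraries.

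Some other ribosomal and mitochondrial genes were higher at day 12 as well, where 11.9% of all genes tested were higher and 9.19% lower. Of 80 cytosolic ribosomal protein genes 18 were higher and 1 lower (median 0.18), and of 36 respiratory chain genes 11 were higher and none lower (median 0.13, edgeR), including Ndufa2 (0.37) and Ndufs8 (0.34). Cell type markers also differed between these libraries. Neuron markers summed to 361 to 379 CPM in DMSO, 701 at 10 nM and 754 at 100 nM. Fibroblast markers summed to 2139 to 2227, 1646 and 1378, and yolk sac and liver markers to 1123 to 1149, 604 and 534. All 8 neuron markers, all 8 fibroblast markers and all 6 yolk sac and liver markers were above 0 in these 4 libraries. Markers of dividing cells were 2431 to 2487 CPM in DMSO, 2367 at 10 nM and 2478 at 100 nM. Their part in the members' change was not tested. The count of 12 fell to 4 without either DMSO library, to 5 without the 100 nM library and to 6 without the 10 nM library, and to 0 when the DMSO pair was summed to 1 library. Mrps11 did not pass without the 10 nM library (edgeR adjusted p = 0.0577), nor did Mrpl55 without it or DMSO replicate 1. Mrpl20 did not pass without either DMSO library or the 100 nM library, and Mrpl47 without DMSO replicate 1 or either TBBPA library.

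Later days had fewer calls. At day 18 only Mrpl34, a small basic protein of the large subunit, was higher (10.5% of all genes passed, 5.96% higher and 4.56% lower): it had 27.8 and 30.5 CPM in DMSO, 37.5 at 10 nM and 38.4 at 100 nM, without overlap (log2 change 0.38, SE 0.09, edgeR adjusted p = 0.00572). Without DMSO replicate 1 or without the 100 nM library no member passed. At day 28, 3 members were higher and none lower (7.09% of all genes passed, 3.65% higher and 3.44% lower): Mrps21 (29.8 and 27.4 CPM in DMSO, 35.2 at 10 nM, 38 at 100 nM; log2 change 0.35), Mrpl49 (34.8 and 30.7, then 38.9 at either dose; 0.25) and Mrpl11 (29.7 and 30.4, then 36.3 and 35.6; 0.26). The share of members called higher was near that of all genes. Here too 68 of 77 log2 changes were positive, with a median of 0.12 beside 0.01 for all genes. Both TBBPA libraries were above both DMSO libraries for 45 members. Neither the sign nor the overlap was counted over all genes. No member passed when either DMSO library or the 100 nM library was left out, and 1 (Mrps21) passed without the 10 nM library. Markers of dividing cells summed to 1010 and 1023 CPM with TBBPA at day 28 and to 853 to 861 in DMSO, and fibroblast markers to 9519 and 10257 against 14484 to 15066; their part was not tested.

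The effect of TBBPA over all 5 days differed between days for no member (edgeR, 8 at an unadjusted p under 0.05, 10.4% of all genes passed). Over the days together, the 10 nM libraries were higher than DMSO for Mrpl11 (log2 change 0.15) and Mrpl48 (0.17), where 14.0% of all genes passed, 7.58% higher and 6.44% lower. The 100 nM libraries were higher for Mrpl52 (0.19), Mrpl13 (0.16), Mrps28 (0.22), Mrpl12 (0.12) and Mrpl45 (0.11), where 15.6% passed, 7.71% higher and 7.90% lower. Both doses together gave 7 higher members (22.9% passed, 12.1% higher). These comparisons share the DMSO libraries, and all 3 gave 0 member calls when the 2 DMSO libraries of a day were added together. Cell type markers differed in the same fits. With both doses together, 8 of 8 neuron markers were higher (median log2 change 0.56), 5 of 8 fibroblast markers lower (-0.47) and 5 of 5 tested skeletal muscle markers lower (-1.39), and of the 8 markers of dividing cells Pcna was higher (0.16). Markers of ES cells (5 of 10), heart muscle (4 of 6), erythroid cells (2 of 5) and yolk sac and liver (1 of 6) were lower in part, and of 7 epithelial markers 4 were lower and 1 higher. Their part in the members' changes was not tested. No member was called between 100 nM and 10 nM (edgeR, 3 at an unadjusted p under 0.05; 0 with each other tool or setting run), and neither was any other gene (0.00% of all genes passed), so the 0 says nothing of the members in particular. The smallest p was that of Mrpl52, with a log2 difference of 0.17 (SE 0.07, edgeR adjusted p = 0.739), so a difference between doses was not detectable at 5 libraries each. Single libraries moved these counts: for 10 nM from 0 without the day 12 library to 10 without the day 9 library, for 100 nM from 1 without the day 12 library to 10 without the day 9 library, and for both doses to 13 without the day 9 10 nM library.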

How the data were processed

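RNA of 22 libraries was measured by RNA-seq. Per the labels' protocols, RNA was taken with Trizol and the RNeasy Plus mini kit and libraries were made at BGI. The submitters' processing notes name HISAT, Bowtie2 and the genome GRCm38.p5. No source used here gives the counting tool, its strand setting or any version. The authors deposited 1 table per library with an estimated count of reads (expected count), an FPKM and a transcript length for each gene. A gene absent from a table was taken as 0.

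Expected counts were rounded and tested with edgeR 4.0.16 (R 4.3.3; TMM, filterByExpr with a minimum count of 10 and total of 15, robust quasi-likelihood fit), adjusted by Benjamini-Hochberg over all genes tested at 0.05. Control steps used the 12 ES and DMSO libraries, TBBPA at single days all 22 libraries in 11 groups (ES, and DMSO or TBBPA at each day, the doses joined), and the comparisons over days the EB libraries compared, with day and dose as terms. CPM used TMM library sizes. The fits were tested on simulated data. Alternatives were DESeq2 1.42.0, its size factors, library size alone, limma 3.58.1 on log2(FPKM + 1) and log2(FPKM + 0.1), no filter, fewer libraries and each library left out.

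Named genes were the 5 largest rises and falls per comparison among called members without overlap (the 3 of smallest p where fewer than 3 were called), a set named throughout, and the extremes of FPKM and of range. The members and lists were chosen with earlier results of these data known. Promoters came from RefSeq (GRCm38.p6, whose chromosomes are those of p5) and overlaps from gene spans, introns included, of the GENCODE annotation. Libraries were not treated as paired by replicate number in the main fits.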

Additional observations from a re-analysis of the deposited data

How the results depend on the processing

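Of 305 alternative values of the 17 counts of members, 231 stayed within 1.5 times the count reported and 74 did not, and no direction reversed in any of them. Of 1258 values for the genes named per comparison, 1087 kept their side of the threshold, 167 no longer passed, 4 newly passed and none reversed. The numbers of calls that moved were as follows. With only the libraries compared in the fit, 19 members passed from ES cells to day 4, 58 from day 9 to day 12, 43 from day 12 to day 18, and with TBBPA 21 at day 12 and 1 at day 28. With DESeq2, 19 passed from day 9 to day 12, 11 from day 12 to day 18, and with TBBPA 6 at day 12 (7 with its size factors in edgeR) and 1 at day 28. With library size alone, 22 passed from day 9 to day 12, 0 with TBBPA at day 28, 3 at 100 nM over the days and 4 at both doses. Without both ES libraries, chosen after seeing the data, 58 passed from day 9 to day 12 and 42 from day 12 to day 18.

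For TBBPA, 10 nM alone gave 3 calls at day 12, 0 at day 18 and 0 at day 28, and 100 nM alone gave 5 at day 12 and 1 at day 28. Without a filter 1 passed at day 28. Limma gave 0 at day 28 and 3 at 100 nM over the days with either pseudocount. Each DMSO pair summed to 1 library left 0 calls at days 12, 18 and 28, at 10 nM and 100 nM over the days and at both doses. The cause was not tested for any of these.

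Leaving out 1 library at a time gave 25 to 49 calls from ES cells to day 4, 34 to 40 from day 4 to day 9, 16 to 19 from day 9 to day 12, 5 to 10 from day 12 to day 18, 12 to 18 from day 18 to day 28 and 67 to 74 from ES cells to day 28. For TBBPA it gave 4 to 6 at day 12, 0 to 1 at day 18, 0 to 1 at day 28, 0 to 1 for the difference between days, 0 to 10 at 10 nM, 1 to 10 at 100 nM and 3 to 13 at both doses. A lone library is then assumed to vary like the other groups.

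No shared deviation of same-numbered libraries was seen between control groups: 15 correlations lay between -0.0332 and 0.0537. These values cannot show whether such libraries came from a common culture or batch. With the replicate block 35, 40, 35, 20 and 26 members passed at the 5 control steps and 73 from ES cells to day 28, so the block moved no count by over 1.5 times. Depth limits little here, since every member had at least 225 estimated reads in each library. The limits are 1 library per dose and day, 2 per control group, an ES pair that differs most, and unstated strand.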
